A study of Mus musculus with 54 samples.

Results

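Gene expression in the mouse suprachiasmatic nucleus (SCN), the hypothalamic nucleus that holds the master circadian clock, was compared between late night (ZT22) and mid night (ZT18). Zeitgeber time (ZT) counts hours from lights on in a 12:12 light/dark cycle, so both timepoints lie in darkness. Each timepoint had 3 replicates (A, B and C), which makes 6 of the 18 replicates and 2 of the 6 timepoints of the series. All mice were wild-type C3H/HeH males aged 10–12 weeks under 150 lux, housed alone for the last 7 days and given no drug. A replicate was RNA from the laser-captured SCN of 5 animals, so it averages animals and says nothing of a single mouse. About 1 ng was amplified with the polyA-primed SMARTer protocol and sequenced in 3 lanes, which the deposited counts combine. Of the 24162 genes with a read in these 6 libraries, 18927 entered the test, which covered 18941 genes in all. The other 5235 had a read in too few of the 18 libraries.

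The clock of SCN neurons is a transcriptional loop. CLOCK and ARNTL (BMAL1) drive *Per* and *Cry* genes through E-boxes, and the PER and CRY proteins return to repress them. A second loop runs through the REV-ERB repressors (*Nr1d1*, *Nr1d2*) and ROR activators, and output genes such as *Dbp*, *Avp* and *Prok2* carry the rhythm onwards. In mid night the *Per* transcripts of the SCN are known to decline, and late night precedes the dawn activation of the E-box genes.

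Library totals were 15412981 to 31836018 reads at ZT18 and 27284642 to 27991657 at ZT22. Replicate C of ZT18 stood apart. It had the lowest total of all 18 libraries, and its log2 CPM (counts scaled to the library total) correlated with the other ZT18 libraries at r = 0.90, against 0.95 between those and 0.97 to 0.98 among the ZT22 libraries. Principal component analysis of the 18 libraries put ZT22 beside ZT2 and replicates A and B of ZT18 beside ZT14. ZT18 C lay apart from both on the first component, at 23.7 against -2.4 and -0.49 for the other ZT18 libraries and -42.9 to -31.4 for ZT22. The study names sequencing batch beside timepoint as a source of such separation and, from its clock gene profiles, regards batch effects as small. The labels do not say which library was sequenced in which batch. A batch that follows these clusters and the 4 hr between ZT18 and ZT22 cannot be told apart by this comparison alone. The ZT2 against ZT14 difference, which crosses the same clusters with other libraries, is therefore given beside it. It is itself a comparison of 2 times of day. In pooled tissue, fewer cells of a type and less RNA per cell cannot be told apart either.

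Between ZT18 and ZT22, 3435 of 18941 genes changed (edgeR quasi-likelihood test, Benjamini–Hochberg adjusted p, here q, under 0.05), 18.1% of those tested. At ZT22, 1187 genes were higher (6.27%) and 2248 lower (11.9%). The falls were the larger changes. Of the genes called lower, 1886 fell by at least 1 on the log2 scale and 373 by at least 3, while 472 of the genes called higher rose by at least 1 and 64 by at least 3. The median log2 difference (ZT22 minus ZT18) was -1.69 over the genes called lower, 0.90 over those called higher and -0.04 over all genes tested. The libraries of the 2 timepoints did not overlap for 3291 of the 3435 genes, and for 38.2% of all genes tested. The split by direction depended on the scaling: with upper-quartile factors, which shifted the median over all genes to 0.11, 1907 genes were called higher and 1950 lower. Without ZT18 C, 3262 genes were called, 977 higher and 2285 lower, and 2713 of them were also called with all libraries. Without ZT22 B, 2138 genes were called, and without ZT22 C, 2097. Replicate A of ZT22 was the ZT22 library nearest to ZT18 for 752 of the 1187 genes called higher and for 1299 of the 2248 called lower.

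Among the 16 clock genes and SCN peptides followed throughout, *Per2*, *Avp* and *Grp* fell and *Dbp* and *Prok2* rose from mid to late night. *Per2* (chr1:91415982-91459324, GRCm38), a repressor of the core loop, had 25.8, 26.7 and 30.9 CPM at ZT18 (A, B, C) and 6.88, 14.9 and 10.8 CPM at ZT22. Every ZT22 library lay below every ZT18 library, and *Per2* fell by 1.36 ± 0.29 on the log2 scale (SE, n = 3 per timepoint, edgeR q = 0.0030). It was the only one of 10 clock repressors tested that was called, against 11.9% of all genes called lower and 6.27% called higher. *Per3* fell from 26.7, 24.9 and 46.9 CPM to 19.1, 18.3 and 16.7 CPM without overlap but did not pass the test (log2 difference -0.86 ± 0.36, edgeR q = 0.11). The other repressors were not called either, among them *Per1* (log2 difference -0.33), *Cry1* (-0.39), *Cry2* (-0.67), *Bhlhe41* (-0.20), *Nr1d2* (0.29) and *Nr1d1* (0.41). The highest log2 difference among the 10 was 0.98, for a member not named here. The *Nr1d1* value rests on widely spread libraries, with 376, 35.0 and 164 CPM at ZT22, and the gene overlaps *Thra*. Leaving out ZT18 C brought *Cry2* (lower) and *Nr1d2* (higher) past the threshold.

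None of the 7 clock activators tested passed, among them *Clock* (log2 difference -0.04), *Arntl* (-0.32), *Rora* (0.27) and *Rorb* (0.40). The lowest log2 difference among the 7 was -1.13, for a member not named here. *Dbp*, a transcription factor that acts on D-boxes and is itself an E-box target, had 14.9, 14.2 and 9.52 CPM at ZT18 and 25.3, 21.6 and 26.4 CPM at ZT22. It rose by 0.92 ± 0.24 (edgeR q = 0.013), with no overlap (2.02 with the length and GC trend described further on removed), although its exons overlap those of *Sphk2* and the call was lost without ZT18 C, without ZT22 C or with the 6 libraries alone. The other D-box factors *Tef*, *Hlf* and *Nfil3* had log2 differences of 0.27, -0.15 and -0.26 and were not called. The 8 genes of clock protein turnover held no call, and their most abundant members *Gsk3b* and *Btrc* had log2 differences of 0.20 and 0.13. Without ZT18 C 1 of them was called lower.

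**Figure D1:**
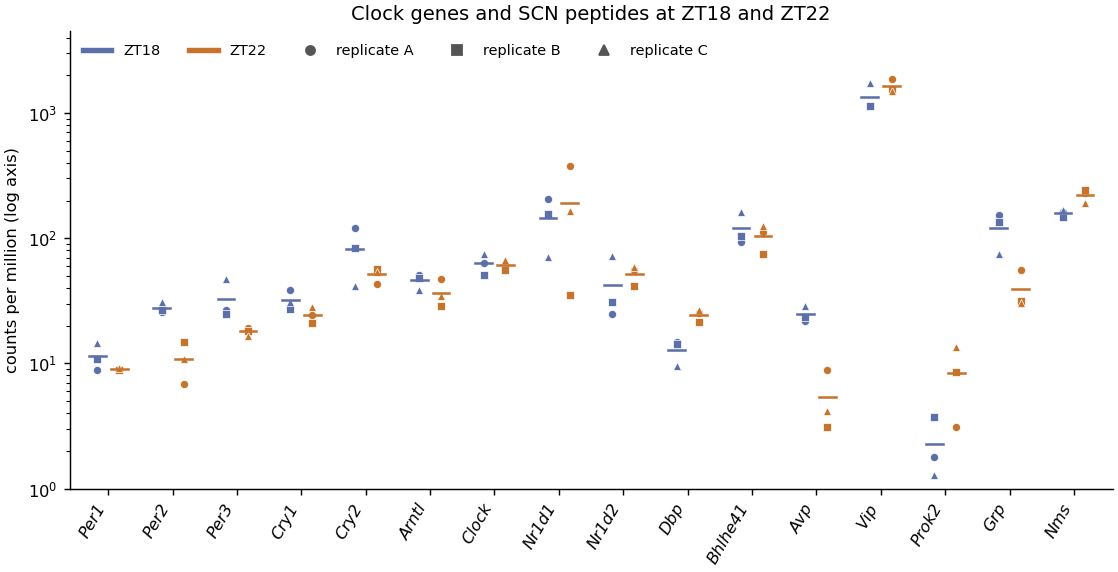
CPM (log axis) of the 16 clock genes and SCN peptides in each replicate of ZT18 (blue) and ZT22 (orange), with a bar at each mean. *Per2*, *Avp* and *Grp* lie lower and *Dbp* higher at ZT22 with no overlap, while the *Prok2* libraries overlap and *Clock* and *Vip* mix.

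Of 17 SCN neuropeptides tested, 3 fell (17.65%) and 2 rose (11.76%), against 11.9% and 6.27% of all genes. *Avp* (chr2:130580620-130582554), which encodes the vasopressin of the SCN shell, had 21.9, 23.6 and 28.9 CPM at ZT18 and 8.81, 3.12 and 4.19 CPM at ZT22. All ZT22 libraries were far below all ZT18 libraries, at a log2 difference of -2.20 ± 0.32 (edgeR q = 1.0e-04). *Avp* is short and GC-rich (577 bases of exon, 65.7% GC), and with the length and GC trend removed its log2 difference was -0.37 and it was not called (edgeR q = 0.38). *Grp*, gastrin-releasing peptide of the light-receiving core, fell from 153, 136 and 74.8 CPM to 55.6, 31.8 and 30.1 CPM (log2 difference -1.63 ± 0.28, edgeR q = 4.4e-04). *Penk*, which encodes enkephalin precursor, fell from 338, 313 and 413 CPM to 89.9, 79.3 and 76.1 CPM (log2 difference -2.12 ± 0.58, edgeR q = 0.016), and lost the call without ZT22 B or without ZT22 C. The ZT2 minus ZT14 differences of *Avp*, *Grp* and *Penk* were -2.17, -1.62 and -3.64. Without ZT22 A, 5 of the 17 peptides were called lower, *Sst* and *Cartpt* beside these.

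*Prok2*, an SCN output signal that is known to peak by day, had 1.79, 3.69 and 1.28 CPM at ZT18 and 3.08, 8.56 and 13.6 CPM at ZT22. The libraries overlapped by 1 pair, and the rise of 1.86 ± 0.49 (edgeR q = 0.013) was not called without ZT18 A, without ZT22 C or with the 6 libraries alone. *Scg2*, a granin of peptide vesicles, rose from 4352, 3777 and 3494 CPM to 6955, 6417 and 6513 CPM (log2 difference 0.77 ± 0.19, edgeR q = 0.0088), again with no overlap. *Vip*, the main coupling peptide of the core, had a log2 difference of 0.31 ± 0.25 (edgeR q = 0.44) and *Nms* one of 0.48 ± 0.19 (edgeR q = 0.10). The median over the 17 peptides was -0.45 with all libraries and 0.46 without ZT18 C, against -0.04 over all genes with all libraries.

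Peptide receptors carry these signals between SCN neurons. Of 14 receptors tested, *Npy1r*, *Grpr* and *Adcyap1r1* rose (21.4%) and none fell, where 6.27% of all genes rose and 11.9% fell. *Npy1r*, a neuropeptide Y receptor, had 14.2, 18.4 and 7.99 CPM at ZT18 and 33.4, 43.2 and 42.7 CPM at ZT22 (log2 difference 1.55 ± 0.32, edgeR q = 0.0021). *Adcyap1r1*, the PACAP receptor of the photic input, rose by 0.75 ± 0.21 (edgeR q = 0.018) and *Grpr*, the receptor for the peptide that fell, by 1.36 ± 0.45 (edgeR q = 0.045). The last call was kept in 7 of the 18 fits that leave out 1 library and lost with the 6 libraries alone or the length and GC trend removed, and without ZT22 C 1 receptor was called higher. *Adcyap1r1* lost its call without ZT18 C or without ZT22 C. *Avpr1a* was called lower without ZT18 C and *Vipr2* without ZT22 A. *Vipr2* and *Prokr2*, the receptors through which VIP and PROK2 act, had log2 differences of -0.28 and -0.11 with all libraries and were not called. Of 11 SCN transcription factors, *Id2* rose by 0.84 ± 0.19 (edgeR q = 0.0048) and *Six6*, needed for the SCN to form, fell from 143, 127 and 88.3 CPM to 57.9, 36.2 and 43.2 CPM (log2 difference -1.38 ± 0.23, edgeR q = 3.5e-04). Each was 9.09% of that list, near the shares of all genes. *Six6* was called in all 18 of the fits without 1 library, and *Dlx2* was called lower beside it without ZT18 B.

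Clock-related sequence letters lay upstream of genes that moved in either direction. The sequences below are the 250 bases before the RefSeq start (build GRCm38.p6) of *Avp* (chr2:130582589-130582838, minus strand), *Prok2* (chr6:99726393-99726642, minus strand), *Gadd45g* (chr13:51846425-51846674, plus strand) and *Ptgds* (chr2:25469750-25469999, minus strand), shown because each gene was called and holds an E-box (CACGTG) or a D-box (TTATGTAA on either strand). They are written 5′ to 3′ on the gene's strand with the motif in capitals.
Avp: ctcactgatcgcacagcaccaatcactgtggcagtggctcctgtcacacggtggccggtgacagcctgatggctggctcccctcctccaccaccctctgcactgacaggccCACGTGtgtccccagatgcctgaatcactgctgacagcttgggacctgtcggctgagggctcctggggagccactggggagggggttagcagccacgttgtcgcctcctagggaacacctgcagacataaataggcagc
Prok2: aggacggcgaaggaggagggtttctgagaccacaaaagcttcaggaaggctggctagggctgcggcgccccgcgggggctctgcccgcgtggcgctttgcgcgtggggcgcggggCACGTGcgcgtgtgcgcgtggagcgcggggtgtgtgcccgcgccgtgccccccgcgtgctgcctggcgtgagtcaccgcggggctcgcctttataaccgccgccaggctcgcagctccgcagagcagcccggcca
Gadd45g: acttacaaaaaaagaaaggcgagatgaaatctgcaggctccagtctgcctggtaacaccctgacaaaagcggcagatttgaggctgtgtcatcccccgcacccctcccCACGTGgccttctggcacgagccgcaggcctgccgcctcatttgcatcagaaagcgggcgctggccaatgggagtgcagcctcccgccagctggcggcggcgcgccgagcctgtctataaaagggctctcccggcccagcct
Ptgds: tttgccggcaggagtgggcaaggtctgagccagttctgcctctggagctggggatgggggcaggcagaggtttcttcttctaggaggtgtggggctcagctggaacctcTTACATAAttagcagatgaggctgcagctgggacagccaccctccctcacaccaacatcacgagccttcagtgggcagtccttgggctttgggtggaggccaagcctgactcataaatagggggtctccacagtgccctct
The E-box begins 139 bases before the start of *Avp*, which fell, 135 bases before that of *Prok2*, which rose, and 142 bases before that of *Gadd45g*, which fell. *Per1*, *Cry1* and *Bhlhe41*, which also hold an E-box, and *Per3*, which holds a D-box, were not called. The RefSeq table matched 28 of the 40 genes searched, namely the 24 with the highest or lowest differences and the 16 above. Over windows that run to 50 bases past the start, an E-box was present in 11.1% of 903 genes called higher, in 12.3% of 1558 called lower and in 10.8% of all 12419 tested genes that matched. A D-box was present in 0.886%, 0.642% and 0.829% of these sets, a cyclic AMP response element (TGACGTCA) in 3.10%, 3.27% and 3.16%, and the ROR and REV-ERB core (AGGTCA, either strand) in 15.3%, 13.8% and 15.5%. The shares among the genes called were thus within 2 percentage points of the share among all.

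The 12 highest differences among called genes with at least 10 CPM and no overlap lay between 2.10 and 2.71 on the log2 scale. *Lamp5*, a lysosome-associated protein of forebrain neurons, had 36.9, 43.0 and 28.3 CPM at ZT18 and 114, 354 and 241 CPM at ZT22 (log2 difference 2.71 ± 0.60, edgeR q = 0.0040). *Epha7*, an ephrin receptor, rose by 2.70 ± 0.56, *Gpr22*, an orphan receptor, by 2.46 and *Sorcs3*, a neuronal sorting receptor, by 2.45. *Ptk2b*, a calcium-activated tyrosine kinase, went from 47.0, 57.0 and 41.5 CPM to 98.4, 370 and 296 CPM. Replicate A of ZT22 was the lowest ZT22 library for 11 of these 12 genes, and ZT18 C was the lowest ZT18 library for 9.

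The one gene with another order at ZT22 was *Ptgds*, prostaglandin D2 synthase of glia and meninges, with 548, 571 and 383 CPM at ZT18 and 3069.6, 1824 and 1995 CPM at ZT22 (log2 difference 2.20 ± 0.46, edgeR q = 0.0024), where replicate A was the highest. The others were *Myo5b*, *Slc9a9*, *Ipcef1*, the calcium release channel *Ryr2*, *A2ml1* and the AMPA receptor subunit *Gria3*, with log2 differences between 2.10 and 2.31. *A2ml1* lost its call without ZT18 A, ZT18 C or ZT22 B, and *Ipcef1* without ZT18 A or ZT22 C. None of the 12 was called for the difference of the 2 differences described further on. For *Ptgds* the ZT2 minus ZT14 difference was 1.32, while for the other 11 it lay between -1.10 and 0.74.

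The 12 lowest differences lay between -7.36 and -5.16. *Gadd45g*, a stress-response and growth-arrest gene, fell from 181, 129 and 101 CPM to 5.33, 2.46 and 3.30 CPM (log2 difference -5.21 ± 0.40, edgeR q = 6.8e-08). *Alkbh6*, a member of the AlkB dioxygenase family, fell from 177, 176 and 132 CPM to 6.09, 3.67 and 3.76 CPM (log2 difference -5.16 ± 0.26, edgeR q = 1.0e-09). *C1qtnf4*, a secreted C1q-related protein, fell by 5.30 ± 0.31, *Flywch1* by 5.80 ± 0.56 and *Yjefn3* by 5.43 ± 0.52. Between ZT2 and ZT14 these 5 genes differed by -6.08, -4.97, -5.56, -6.23 and -5.58 in that order.

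*Gm10800*, *Gm10801*, *Gm10722* and *Gm11168* also stood among the 12 lowest, but they are near-identical predicted genes between which reads may be split, and ZT18 B alone carried most of their reads, with 863 CPM of *Gm10800* against 218 and 96.7 CPM in A and C. Without ZT22 B or ZT22 C, *Gm10801* and *Gm11168* were not called, nor were they without ZT18 B, and *Gm10800* and *Gm10722* kept their calls in 14 of the 18 fits. Their ZT2 minus ZT14 differences had the other sign, between 2.89 and 4.41. *Gm5617*, *mt-Tq*, a mitochondrial tRNA gene that overlaps *mt-Ti*, and an unnamed gene with the identifier ENSMUSG00000082697 completed the 12, with log2 differences of -6.85, -6.47 and -5.46.

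**Figure D2:**
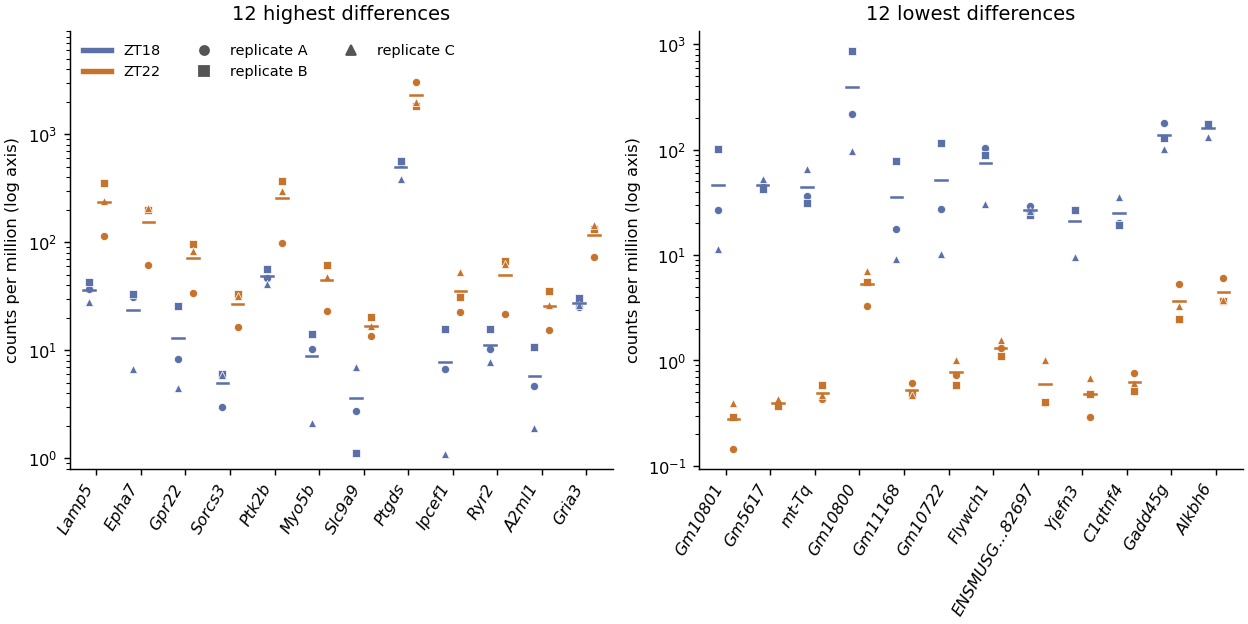
CPM (log axis) in each replicate of ZT18 (blue) and ZT22 (orange) for the 12 genes with the highest (left) and the 12 with the lowest log2 difference (right), with a bar at each mean. By the rule that chose them no gene overlaps between timepoints. Replicate A of ZT22 (circle) is the lowest ZT22 library for 11 of the 12 on the left, and ZT18 replicate B (square) carries the 4 predicted *Gm10800*-type genes on the right.

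Genes of neuronal signalling were split between the directions. Of 22 glutamate receptor subunits tested, 5 rose (22.7%) and 1 fell (4.55%), where 6.27% of all genes rose and 11.9% fell. *Gria2*, the AMPA receptor subunit that limits calcium entry, rose from 345, 430 and 294 CPM to 711, 1067 and 1063 CPM (log2 difference 1.41 ± 0.20, edgeR q = 6.9e-05). *Grin2b*, an NMDA receptor subunit, rose by 1.85 ± 0.29 (edgeR q = 2.4e-04), whereas *Grin1*, the obligatory NMDA subunit, fell from 51.8, 51.1 and 55.0 CPM to 7.65, 6.54 and 11.04 CPM (log2 difference -2.65 ± 0.26, edgeR q = 1.3e-06). *Grin1* fell by 3.48 between ZT14 and ZT2, while *Grin2b* differed by 0.03 there.

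GABA genes also went both ways, with 5 of 24 called higher (20.8%) and 3 lower (12.5%), the latter near the share of all genes. The receptor subunit *Gabra2* rose by 1.63 ± 0.27 (edgeR q = 4.1e-04), whereas *Gabrd*, which serves tonic inhibition, fell by 2.40 ± 0.65 (edgeR q = 0.014) and *Gabrb1* by 1.43 ± 0.22 (edgeR q = 2.0e-04). Of 38 genes of calcium and nitric oxide signalling, 9 rose (23.7%) and 5 fell (13.2%), the latter again near the 11.9% of all genes. *Ryr2* rose, as above, and so did the adenylyl cyclase *Adcy9* (1.85 ± 0.42), while *Adcy3* fell by 2.03 ± 0.45. *Crtc1*, a CREB coactivator in the light response of the SCN, fell from 84.7, 103 and 99.8 CPM to 4.64, 3.38 and 6.99 CPM (log2 difference -4.26 ± 0.38, edgeR q = 4.2e-07).

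Ion channels set the firing rate of SCN neurons. Of 37 potassium channel genes tested, 4 rose and none fell. The rises were 10.8% of the list, where 6.27% of all genes rose and 11.9% fell. The list median was 0.48 against -0.04 over all genes. *Kcnma1*, the large-conductance channel of the SCN firing rhythm, rose from 51.4, 46.0 and 22.8 CPM to 79.5, 132 and 118 CPM (log2 difference 1.45 ± 0.27, edgeR q = 9.5e-04), and *Kcnj3*, *Kcna1* and *Kcnq5* by 1.79, 1.73 and 1.68. For *Kcnq5* the libraries overlapped, and without ZT22 B 2 potassium channels were called. Sodium and calcium channels gave 7 rises (25%, against 6.27% of all genes) and 4 falls (14.3%, near the 11.9% of all genes) among 28. *Scn8a* rose by 1.36 ± 0.27 and *Cacna1g*, *Hcn3* and *Hcn4* fell by 1.31, 1.24 and 2.19. Without ZT22 C 3 rises and 2 falls of that list were called, and without ZT22 B 2 falls. With the 6 libraries alone the list held 4 rises and 1 fall, and with the length and GC trend removed, 3 rises and no fall.

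Synaptic vesicle genes rose in 11 of 37 cases (29.7%) and fell in 3 (8.11%), against 6.27% and 11.9% of all genes. *Nsf*, the ATPase that recycles SNARE complexes, had 732, 613 and 398 CPM at ZT18 and 1175, 1601 and 1647 CPM at ZT22 (log2 difference 1.34 ± 0.22, edgeR q = 3.4e-04). *Syt5*, *Rab3a* and *Syngr3*, which also sit on vesicles, fell by 3.73 ± 0.30, 2.11 ± 0.37 and 2.09 ± 0.43. Of 16 RGS proteins, which shorten G-protein signals, 5 fell (31.25%) and 1 rose (6.25%), against 11.9% and 6.27% of all genes. *Rgs20*, *Rgs12* and *Rgs3* fell by 1.62, 1.42 and 1.38 and *Rgs4* rose by 1.48 ± 0.38 (edgeR q = 0.012), a call lost without ZT22 B. Without ZT18 C 2 RGS genes were called higher, and with DESeq2 or upper-quartile factors 3.

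Immediate early genes, the first transcripts to answer calcium and light signals, gave 4 rises (15.4%) and 5 falls (19.2%) among 26, where 6.27% and 11.9% of all genes were called. *Egr1* rose from 13.6, 19.6 and 23.7 CPM to 37.0, 76.7 and 56.4 CPM (log2 difference 1.58 ± 0.35, edgeR q = 0.0040), and *Homer1*, whose short form uncouples glutamate receptors, from 16.6, 25.6 and 30.9 CPM to 36.9, 78.2 and 67.6 CPM (1.32 ± 0.31, edgeR q = 0.0058). *Fosl2* and *Btg2* rose by 1.30 and 0.77. *Arc*, a dendritic effector of plasticity, fell from 43.1, 47.2 and 126 CPM to 8.19, 6.94 and 8.53 CPM (-3.19 ± 0.53, edgeR q = 3.8e-04).

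*Rasd1*, a small G protein of the photic input, fell from 1000.0, 973 and 694 CPM to 432, 55.8 and 116 CPM (-2.14 ± 0.64, edgeR q = 0.025), and *Junb*, *Dusp6* and *Jund* fell by 2.13, 0.99 and 0.74. *Junb* was scarce, at 1.57, 0.771 and 2.20 CPM at ZT18 and 0.507, 0.220 and 0.287 CPM at ZT22. Its exons overlap those of *Prdx2*, and its call was lost without ZT22 B or without ZT22 C. *Fos* had a log2 difference of 0.80 ± 0.50 and was not called (edgeR q = 0.29). Without ZT22 C 1 fall was called, without ZT18 A 2, and without ZT18 B or without ZT22 B 3. With the 6 libraries alone 3 rises and 1 fall were called, and with the length and GC trend removed 5 rises and 3 falls. Between ZT2 and ZT14 the median over the 26 genes was -1.14, against -0.14 between ZT22 and ZT18 (0.01 with upper-quartile factors and 0.34 with the length and GC trend removed).

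Genes of mitochondrial proteins held the 2 smallest p-values. *Mrpl54*, a subunit of the mitochondrial ribosome (chr10:81264713-81266934), had 129, 137 and 132 CPM at ZT18 and 8.91, 8.82 and 7.31 CPM at ZT22 (log2 difference -3.99 ± 0.17, edgeR q = 3.2e-10). *Cox6a1*, a subunit of cytochrome c oxidase, fell from 1061, 993 and 806 CPM to 42.4, 55.1 and 45.2 CPM (-4.32 ± 0.21, edgeR q = 1.0e-09), and *Alkbh6* (above) came next. Replicate spread was small against these gaps, and the calls held in all 18 fits without 1 library. The ZT2 minus ZT14 differences of *Mrpl54* and *Cox6a1* were -3.46 and -4.73.

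Of 74 mitochondrial ribosomal protein genes, 27 fell (36.5%) and 8 rose (10.8%), against 11.9% of all genes that fell and 6.27% that rose. *Mrpl12* and *Mrps12* fell by 3.40 and 3.07, and *Mrpl34* from 102, 97.9 and 71.0 CPM to 9.93, 3.56 and 3.51 CPM. Of 80 nuclear genes of the respiratory chain, 17 fell (21.25%) and 11 rose (13.75%), both above the 11.9% and 6.27% of all genes. The falls were led by *Cox6a1*, *Uqcrc1* (-3.16), *Cox8a* (-3.14) and *Ndufa6* (-3.06). The balance of this second list turned under other settings, with 17 rises and 14 falls with upper-quartile factors, 18 and 17 with DESeq2 and 19 and 15 with the length and GC trend removed. With DESeq2 or upper-quartile factors 14 genes of the mitochondrial ribosome were called higher, and with the 6 libraries alone 5. The medians of both lists, -0.22 and 0.04, lay near the -0.04 of all genes. Of 8 mitochondrially encoded subunits, *mt-Co2*, *mt-Co3* and *mt-Nd3* (37.5%, against 11.9% of all genes) fell by 2.34, 2.16 and 1.73, and the list median was -0.04. Without ZT22 B, 2 genes of the mitochondrial ribosome and 2 nuclear genes of the respiratory chain were called higher, without ZT22 C 4 and 5, and without ZT18 B 4 and 6. Without ZT18 C, 2 mitochondrially encoded subunits were called higher, *mt-Nd5* and *mt-Cytb*.

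Of 82 cytosolic ribosomal protein genes, 25 were called higher (30.5%) and 7 lower (8.54%), against 6.27% and 11.9% of all genes. *Rpl13* fell from 154, 143 and 253 CPM to 13.7, 14.3 and 13.7 CPM (-3.72 ± 0.25, edgeR q = 1.5e-08), and *Rps4l*, *Rps10* and *Rplp2* fell by 3.30, 1.74 and 1.29. Such genes have many near-identical pseudogenes, so reads may be shared between copies and these values are uncertain. Without ZT22 B, 13 of the list were called higher. Of 37 proteasome subunits, 10 rose (27.0%) and 7 fell (18.9%), against 6.27% and 11.9% of all genes, and the list median was 0.42. The falls included *Psmd8* (-2.58 ± 0.27), *Psmd5* (-2.48 ± 0.23) and *Psmd6* (-2.12 ± 0.25). Without ZT22 B, 5 were called higher.

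Glycolysis enzymes rose in 9 of 16 cases (56.2%) and fell in 2 (12.5%), against 6.27% and 11.9% of all genes, with a median of 0.73 against -0.04. *Pfkp*, a phosphofructokinase, had 239, 217 and 107 CPM at ZT18 and 422, 441 and 495 CPM at ZT22 (log2 difference 1.27 ± 0.25, edgeR q = 0.0015). *Pgk1* rose from 89.8, 85.9 and 74.9 CPM to 165, 219 and 194 CPM (1.21 ± 0.18, edgeR q = 1.2e-04) and *Pkm*, the last enzyme of the path, by 1.02 ± 0.24. *Hk1*, which starts it, fell from 332, 272 and 153 CPM to 86.0, 45.1 and 43.1 CPM (-2.12 ± 0.40, edgeR q = 0.0011), and *Pgam1* fell by 1.67 ± 0.28. Without ZT22 B or without ZT22 C, 5 enzymes were called higher, and without ZT18 C 6. *Gapdh* is counted in this list at 16.5 CPM over the 6 libraries, a level that its many processed copies make uncertain.

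In the cholesterol path 5 of 22 genes rose (22.7%) and 4 fell (18.2%), against 6.27% and 11.9% of all genes. The falls included the regulator *Srebf2* (-1.27 ± 0.20, edgeR q = 1.9e-04) and the enzymes *Mvk*, *Sqle* and *Tm7sf2* (-2.05, -1.83 and -1.27). Without ZT18 C, 1 rise and 6 falls were called, and without ZT18 B, ZT22 A, ZT22 B or ZT22 C 2 rises. With DESeq2 or upper-quartile factors 8 rises were called, and with the 6 libraries alone 3. Of 19 heat shock chaperones, *Hsp90ab1*, *Hspa4* and *Hsp90aa1* (15.8%, against 6.27% of all genes) rose by 1.03, 0.77 and 0.70, and 2 fell (10.5%, near the share of all genes). Of these 2, *Dnajb1*, a co-chaperone of HSP70, went from 264, 225 and 189 CPM to 43.9, 28.5 and 34.9 CPM (-2.66 ± 0.21, edgeR q = 1.1e-07). With the length and GC trend removed 1 chaperone was called higher and 4 lower. Of 3 cold-inducible RNA-binding proteins, *Rbm3* rose by 1.08 ± 0.29 (edgeR q = 0.013) and *Srsf5* by 0.94 ± 0.21 (edgeR q = 0.0038), while *Cirbp* was not called (-0.25). The rises were 66.7% of this short list, against 6.27% of all genes. The *Rbm3* call was lost without ZT18 A, without ZT22 B, with the 6 libraries alone or with the length and GC trend removed.

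Of 16 glucocorticoid response genes, *Ddit4* and *Tsc22d3* fell by 1.36 and 0.67 (edgeR q = 0.044 for each). That is 12.5% of the list, near the 11.9% of all genes. No fall in this list was called without ZT18 A, ZT18 B, ZT22 A, ZT22 B or ZT22 C, nor with the 6 libraries alone, DESeq2 size factors, upper-quartile factors or no filter. With DESeq2, upper-quartile factors or the length and GC trend removed 2 of the list were called higher. Without ZT18 A, ZT18 C or ZT22 A, 1 gene of the list was called higher, in that order *Fkbp5*, *Errfi1* and *Klf9*. Splicing factors gave 7 rises (17.5%) and 6 falls (15%) among 40, against 6.27% and 11.9% of all genes. The rises numbered 11 with DESeq2 and 12 with upper-quartile factors. *Snrpf*, *Snrpa* and *Snrpb*, which belong to the core particles of the spliceosome, were down by 3.45, 3.29 and 2.57 and *Srsf10* by 1.29. Actin and small GTPase genes gave 6 rises and 6 falls among 33 (18.2% each way, against 6.27% and 11.9% of all genes). The rises were led by *Arpc3* (1.09 ± 0.20) and the falls by *Limk1* (-1.80), *Pfn1* (-1.61) and *Arpc5* (-1.38). Without ZT22 C 2 of each were called, without ZT22 B 2 rises and 3 falls, without ZT18 B 3 of each and without ZT18 C 3 falls. With the length and GC trend removed 2 rises and 5 falls were called, and with the 6 libraries alone or no filter 3 falls. Of 6 long noncoding RNAs tested, *Pantr1* rose by 1.04 and *Malat1* fell by 0.97 (16.7% each way, against 6.27% and 11.9% of all genes). Each call was lost without ZT22 B or without ZT22 C. That of *Pantr1* was also lost without ZT18 A or ZT18 C, and *Malat1* was called in 7 of the 18 fits. Neither was called with the 6 libraries alone.

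**Figure D3:**
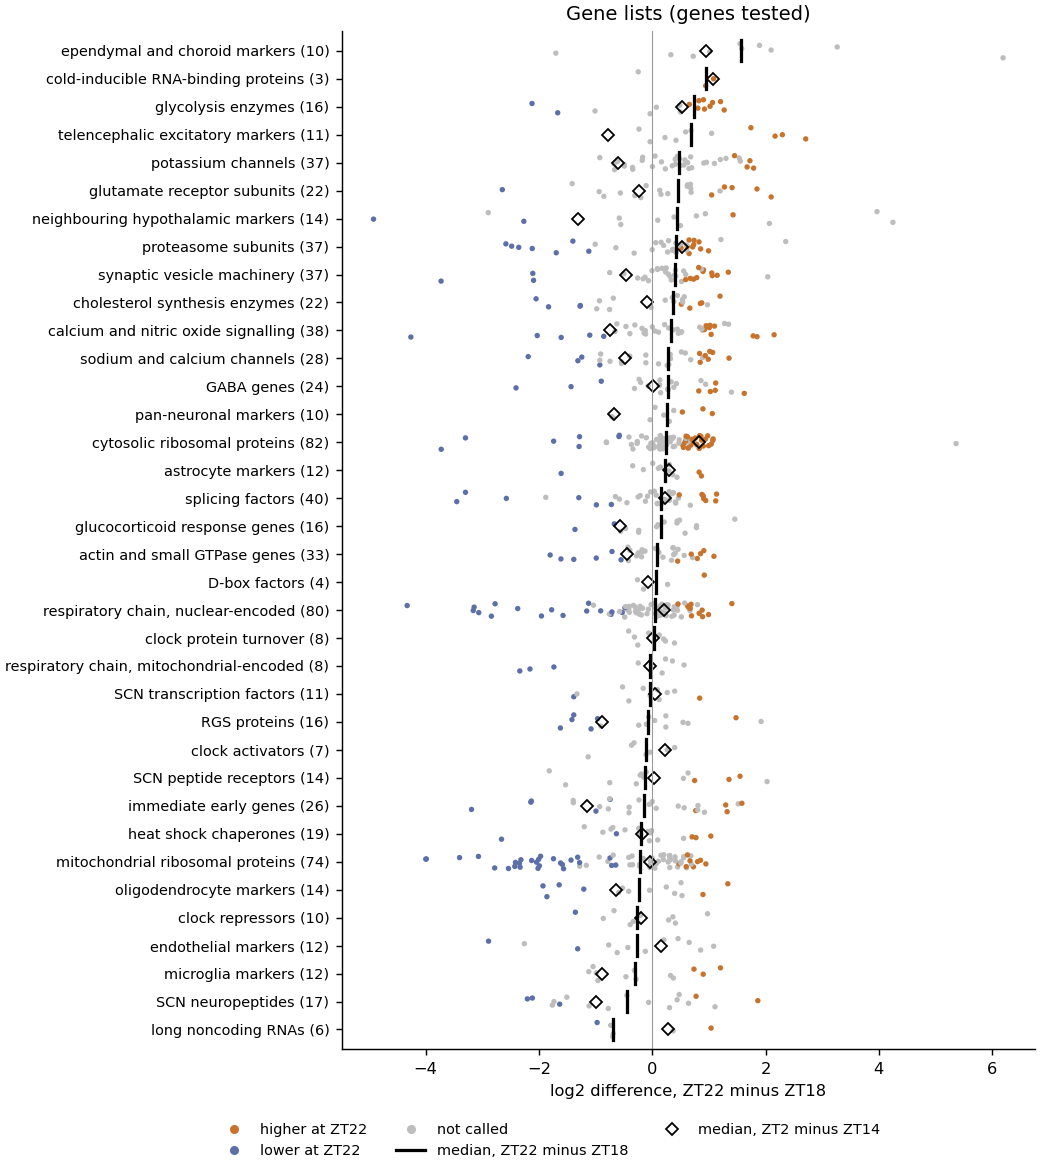
Log2 difference (ZT22 minus ZT18) of each tested member of the 36 gene lists, one row per list, in orange where called higher, in blue where called lower and in grey otherwise. Black bars mark the list median and open diamonds the median of the same genes between ZT2 and ZT14. The bar lies right of the diamond in potassium channels, synaptic vesicle machinery and calcium signalling.

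Markers of other cells were measured because the captured region borders other hypothalamic nuclei and the third ventricle. *Mbp*, a main myelin gene, fell from 3811, 3297 and 3446 CPM to 806, 981 and 988 CPM (log2 difference -1.93 ± 0.47, edgeR q = 0.0077) and *Cnp*, a myelin enzyme, from 632, 408 and 301 CPM to 174, 95.5 and 101 CPM (-1.86 ± 0.35, edgeR q = 0.0011). Of 14 oligodendrocyte markers tested, 4 fell (28.6%) and 2 rose (14.3%, *Opalin* and *Pdgfra*), against 11.9% and 6.27% of all genes. The summed level of the 14 markers was 5252 to 6303 CPM at ZT18 and 2377 to 3210 CPM at ZT22. *Mbp* alone made up 3297 to 3811 CPM of the sums at ZT18 and 806 to 988 CPM at ZT22, and the list median was -0.23. No rise was called without ZT18 C or without ZT22 B and 1 without ZT22 C, and 2 falls were called without ZT22 B or without ZT22 C. With the 6 libraries alone no rise and 2 falls were called, and with the length and GC trend removed 2 falls.

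Astrocyte markers moved in both directions. *Gfap* fell by 1.61 ± 0.38 (edgeR q = 0.0058) and *Aqp4* and *Slc1a2* rose by 0.83 and 0.87, among 12 tested, at sums of 4659 to 5017 and 5181 to 6455 CPM. That is 8.33% lower and 16.7% higher, against 11.9% and 6.27% of all genes. Without ZT22 B or without ZT22 C, 1 astrocyte marker was called higher, as with the 6 libraries alone or the length and GC trend removed. Of 12 microglia markers, *Cx3cr1*, *P2ry12* and *Ctss* (25%) rose by 1.21, 0.90 and 0.74 and none fell, against 6.27% and 11.9% of all genes. The median of the 12 was -0.30, and their sums overlapped, at 308.5 to 426.9 CPM at ZT18 and 374.4 to 490.2 CPM at ZT22. Without ZT18 B, ZT18 C, ZT22 B or ZT22 C, 1 microglia marker was called higher, and without ZT18 C 2 were called lower. Of 12 endothelial markers, *Cldn5*, a tight junction protein, fell from 40.7, 29.5 and 30.1 CPM to 3.51, 5.62 and 4.41 CPM (-2.89 ± 0.32, edgeR q = 4.8e-06) and *Slc2a1* by 1.31. These falls were 16.7% of the list, near the share of all genes. Without ZT18 B, ZT22 B or ZT22 C, 1 endothelial fall was called. Their sums overlapped, at 319 to 396 and 284 to 335 CPM.

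Of 11 markers of excitatory neurons of the forebrain cortex, which the SCN should lack, 4 rose (36.4%), against 6.27% of all genes. *Neurod6* had 11.1, 9.12 and 23.1 CPM at ZT18 and 22.6, 108 and 81.1 CPM at ZT22 (log2 difference 2.30 ± 0.77, edgeR q = 0.047, called in 9 of the 18 fits and not with the length and GC trend removed), and *Slc17a7*, the vesicular glutamate transporter of cortical neurons, 11.04, 18.4 and 17.1 CPM against 21.5, 79.8 and 54.4 CPM (1.74 ± 0.40, edgeR q = 0.0049). *Lamp5* and *Tbr1* (2.17) rose too, and none fell. The sum of the list was 192 to 247 CPM at ZT18 and 310, 750 and 609 CPM in A, B and C of ZT22, and 425 to 741 CPM at ZT14 and 328 to 377 CPM at ZT2. Without ZT18 A, ZT22 B or ZT22 C, 2 of the markers were called. The order of A, B and C at ZT22 matches that of *Lamp5*, which is itself part of the sum, and of *Ptk2b* and *Kcna1*. Other neuronal genes that rose, such as *Gria3* and *Epha7*, were highest in C instead. The part of such cells in the rises of neuronal genes was not tested.

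Of 14 markers of neighbouring hypothalamic nuclei, *Npy* rose by 1.43 ± 0.45 (edgeR q = 0.034), and *Oxt* and *Pomc* fell by 4.92 and 2.27. That is 7.14% higher and 14.3% lower, near the 6.27% and 11.9% of all genes. *Oxt*, oxytocin, stood at 3.94, 9.51 and 0.061 CPM at ZT18 and at 0.072 to 0.22 CPM at ZT22, so ZT18 C lay below the ZT22 libraries. The *Npy* call was lost without ZT18 A, ZT18 B, ZT22 B or ZT22 C, and 1 fall was called without ZT22 B or without ZT22 C. No gene of this list was called with the 6 libraries alone, and 1 fall with the length and GC trend removed. Their summed levels overlapped, at 129 to 190 and 174 to 273 CPM. Of 10 ependymal and choroid markers none was called, but *Ttr*, made by the choroid plexus, had 10.9 to 18.3 CPM at ZT18 and 0.906, 229 and 192 CPM at ZT22, and the list median was 1.56. Of 10 pan-neuronal markers, *Snap25*, *Syt1* and *Stmn2* (30%) rose by 1.06, 0.90 and 0.53 and none fell, against 6.27% and 11.9% of all genes. The sums of the 10 were 4787 to 6385 CPM at ZT18 and 8428 to 9462 CPM at ZT22.

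Called genes differed in composition. Genes called higher had a median exon length of 5173 bases and a median GC content of 47.2%, and genes called lower 3313 bases and 53.9%, against 3574 bases and 49.7% over all genes tested. Among protein-coding genes with at least 1 CPM, 32.9% of the quintile with the highest GC content (over 55.4%) were called lower and 1.95% higher, while in the quintile with the lowest GC content (under 43.8%) 7.25% were lower and 11.2% higher. The median log2 difference of these quintiles was -0.77 and 0.23, and between ZT2 and ZT14 it was -1.18 and 0.39. By exon length, 20.9% of the shortest quintile (up to 2606 bases) and 8.30% of the longest (from 7866 bases) were called lower. *Mrpl54* (60.4% GC) and *Cox6a1* (62.7% GC) belong to the short and GC-rich end. After a smooth trend over length and GC content was removed, a step chosen after seeing the data, 3104 genes were called, 2354 of which were called before, 2351 in the same direction. *C1qtnf4*, *Cox6a1* and *Cldn5* were then called with log2 differences of -3.10, -2.85 and -1.81. *Avp*, *Junb*, *Cacna1g*, *Hcn3*, *Hcn4*, *Limk1*, *Pfn1*, *Pomc*, *Rps10* and *Ddit4* were no longer called lower, nor *Aqp4*, *Slc1a2*, *Hspa4*, *Hsp90aa1*, *Stmn2*, *Grpr*, *Rbm3*, *Pantr1* and *Neurod6* higher.

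**Figure D4:**
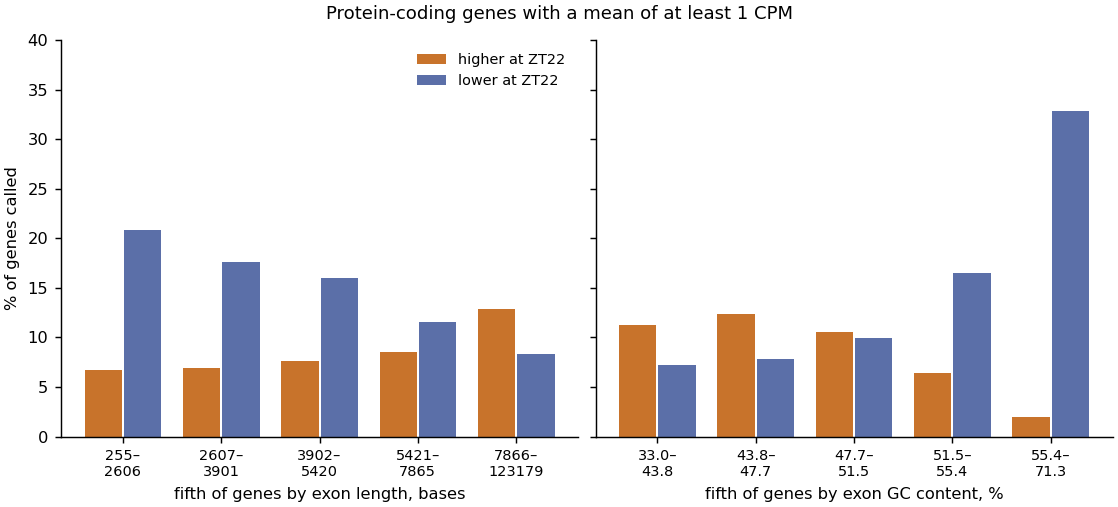
Share of protein-coding genes (at least 1 CPM) called higher (orange) or lower (blue) at ZT22, in quintiles by exon length (left) and by exon GC content (right). The share called lower rises to 32.9% in the quintile with the highest GC content, where 1.95% were called higher.

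Some genes had no read at one of the timepoints. Of the genes tested, 162 had no read at ZT18 and some at ZT22, of which 25 were called, and 266 had none at ZT22 and some at ZT18, of which 56 were called. *Hist1h2al*, a histone pseudogene that overlaps *Gm44341*, had 321, 226 and 63 reads at ZT18 and 0 at ZT22, where 3 counts per library would be 0.109 CPM, so it was at least 65.5-fold lower. In the other direction, *Krt73* had 25, 125 and 54 reads at ZT22 and *Nme9* 33, 112 and 54, at least 19.8-fold and 19.3-fold higher than the 3 counts a library with 0 reads allows. *Akr1c18*, *Pnlip* and *Aplnr* were at least 12.6-fold, 12.9-fold and 11.6-fold higher. *Lin28a*, *Gprin2*, *Amelx* and *Gm11745*, which also had no read at ZT22, each had 2 reads or fewer in at least 1 ZT18 library.

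Genes that changed from ZT18 to ZT22 mostly differed in the same direction between ZT14 and ZT2. The sign was the same for 2199 (97.8%) of the genes called lower and for 1006 (84.8%) of those called higher. The 2 comparisons share no library. Of the 2248 genes called lower, 1840 (81.9%) were called lower at ZT2 against ZT14, and of the 1187 called higher, 541 (45.6%) were called higher there, where 15% and 8.8% of all genes were. These are 64.7% and 32.5% of the genes called lower and higher between ZT2 and ZT14. The median ZT2 minus ZT14 difference was -1.73 over the genes called lower and 0.61 over those called higher. Only 2 genes called lower at ZT22 were called higher at ZT2, and 22 called higher were called lower. Over the 14045 genes with at least 1 CPM, the log2 differences correlated at r = 0.67 across genes, a description, since genes are not independent replicates. Between neighbouring timepoints, 6 genes were called between ZT22 and ZT2 (0.0317%) and 108 between ZT18 and ZT14 (0.57%).

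**Figure D5:**
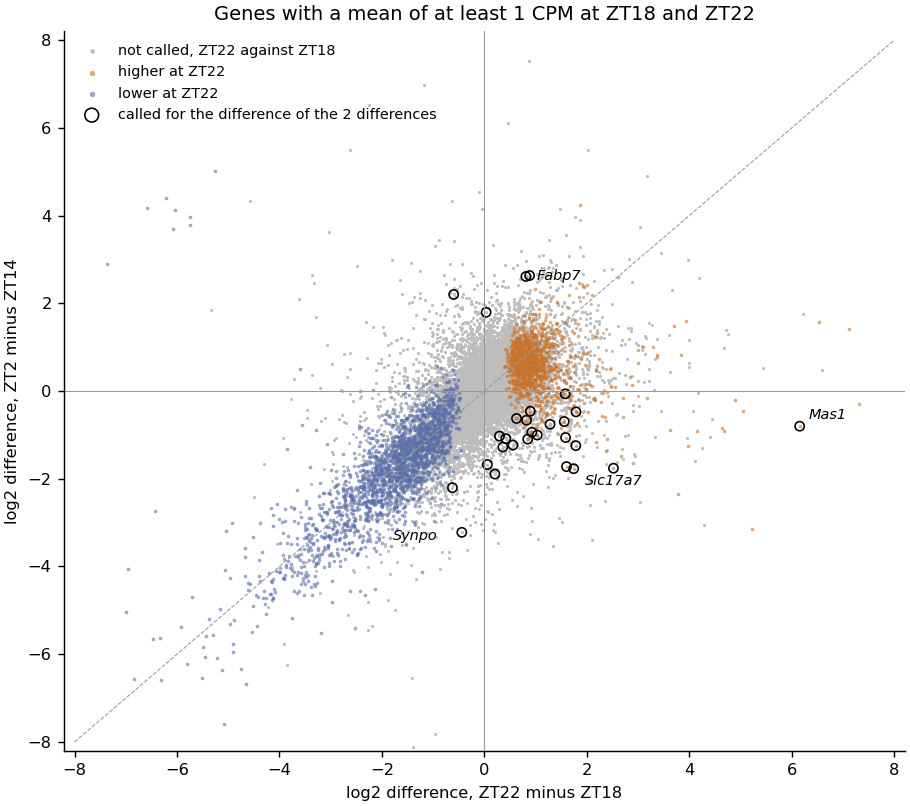
Log2 difference ZT2 minus ZT14 against log2 difference ZT22 minus ZT18 for 14045 genes with a mean of at least 1 CPM (6 lie outside the axes), in orange where called higher at ZT22, in blue where called lower and in grey otherwise. Most blue genes lie below 0 on both axes, the dashed line marks equal differences, and open circles mark the 28 genes whose 2 differences were called unequal.

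The difference of the 2 differences was tested for each gene in the same fit. A shift shared by both pairs of clusters cancels in it, and so does any time-of-day difference of equal size and sign in the 2 comparisons. Changes of the same sign from ZT14 to ZT18 and from ZT22 to ZT2 add up in it. By arithmetic it equals ZT22 plus ZT14 minus ZT18 and ZT2, so it also answers to genes with 2 peaks a day. It called 28 genes (edgeR q under 0.05, 0.148% of those tested), 24 higher and 4 lower, and 16 of them were called with the same sign between ZT22 and ZT18. *Slc17a7* led the named ones: it rose from 15.5 ± 3.9 to 51.9 ± 29.2 CPM (SD, n = 3) between ZT18 and ZT22 and stood at 61.0 CPM at ZT14 and 17.9 CPM at ZT2.

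*Rbfox1*, a neuronal splicing factor, had 49.5, 64.4 and 68.0 CPM at ZT18 and 116, 219 and 217 CPM at ZT22, against 275, 247 and 199 CPM at ZT14 and 40.3, 76.3 and 101 CPM at ZT2. *Atp2b1*, a plasma membrane calcium pump, and *Cnr1*, the cannabinoid receptor, rose by 1.56 ± 0.24 and 1.79 ± 0.30 from ZT18 to ZT22 and differed by -0.70 and -0.48 between ZT2 and ZT14. *Egr1* (above) was of this kind too. The lower group contained *Fabp7*, a fatty acid binding protein of glia, which rose from 98.6, 102 and 92.7 CPM to 171, 181 and 162 CPM, and *Rasl11b*, both of which had a larger difference between ZT2 and ZT14 (2.61 and 2.63). The clock gene *Per2* and the peptides *Avp* and *Grp* had differences of differences of 0.04, -0.03 and -0.01. The calls depended on single libraries: edgeR called 0 without ZT2 A, ZT2 B, ZT14 A, ZT18 B, ZT22 B or ZT22 C, with 1573 to 2097 genes at an unadjusted p under 0.05 in those fits, and 124 were called without ZT22 A. DESeq2 called 460.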

How the data were processed

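RNA-seq of laser-captured SCN was analysed from 2 tables deposited by the authors. One holds raw read counts per gene, with the 3 lanes of a replicate combined, made per the labels and the study's methods with GSNAP (mm10/GRCm38) and HTSeq 0.5.4p1. Whether counting used strand is not given in the sources used here. The other deposited table holds a normalized signal, which is counts divided by a DESeq2 size factor per library. Its values came back as whole reads for 100.0% of entries (tolerance 0.001). They equal the counts for about 93% to 94% of shared genes in ZT18 and ZT22 libraries but for 8.72% to 12.1% in ZT6 and ZT10 libraries, so the count table was used and the recovered reads served as an alternative.

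Genes were kept where more than 6 of the 18 libraries held 1 read or more, and were fitted with edgeR 4.0.16 (R 4.3.3, TMM, quasi-likelihood, 6 timepoint means over all 18 libraries). The contrasts were ZT22 minus ZT18 and its difference from ZT2 minus ZT14, and q is the Benjamini–Hochberg adjusted p over all genes tested. Values per library are CPM on TMM-scaled totals, given with the SD or, for log2 differences, the SE. Replicates are separate pools of animals, so p-values measure the spread between pools. Alternatives used DESeq2 1.42.0, other scalings, filters, thresholds and sample sets, and each of the 18 libraries was left out in turn. Thinning of all libraries to the smallest total and removal of a length and GC trend were chosen after seeing the data. Gene symbols, exons and coordinates came from GENCODE M21 (GRCm38), which named 97.2% of the identifiers, and promoters came from RefSeq. Figures were drawn with matplotlib 3.10.9.

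The genes named were the 12 highest and 12 lowest differences among called genes with at least 10 CPM and no overlap, up to 5 per direction of the second contrast by the same conditions, 16 clock and peptide genes, up to 4 called members of each of 36 lists (or the 2 most abundant where none was called), up to 5 per direction with no read at one timepoint, and the 3 smallest p-values. Other members are named where a count turns on them, and those were chosen after their values were seen. The members and lists were chosen with earlier results of these data known. Values of some list members are not reported here.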

Additional observations from a re-analysis of the deposited data

Results flagged for a closer look

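The late-night difference departed from the difference between ZT2 and ZT14 for 28 genes (edgeR, interaction of the 2 contrasts, q under 0.05), while 2009 genes had an unadjusted p under 0.05. The log2 difference of the 2 differences was 3.51 ± 0.56 for *Slc17a7* and 3.33 ± 0.51 for *Rbfox1* (SE, edgeR q = 0.026 for each). It was 2.64 ± 0.49 for *Egr1* and 2.26 ± 0.42 for *Cnr1* (edgeR q = 0.046 for each), and 2.25 ± 0.33 for *Atp2b1* (edgeR q = 0.026). These 5 genes had higher mean levels at ZT22 and ZT14 than at ZT18 and ZT2, but not in every library. In replicate A of ZT22, *Atp2b1* had 226 CPM, below its 235 to 277 CPM at ZT2. There *Egr1* had 37.0 CPM, below ZT2 A and B (42.3 and 45.4 CPM), and *Cnr1* 121 CPM, below ZT2 A (175 CPM). For *Fabp7* and *Rasl11b* the difference of the 2 differences was -1.80 ± 0.28 and -1.75 ± 0.32 (edgeR q = 0.026 and 0.046). Both rose less from ZT18 to ZT22 than they differed between ZT14 and ZT2. Of the 18 fits that leave out 1 library, *Fabp7* and *Atp2b1* were called in 10, *Rbfox1* in 9, *Slc17a7* in 8, *Egr1* and *Rasl11b* in 6 and *Cnr1* in 5. The summed level of 11 markers of forebrain excitatory neurons was 310 to 750 CPM at ZT22 and 425 to 741 CPM at ZT14. It was 192 to 247 CPM at ZT18 and 328 to 377 CPM at ZT2. *Slc17a7* is itself part of this sum, and the higher genes were selected for high levels at ZT22 and ZT14, so the sum is not independent of them. The part of such neurons in these differences was not tested.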

How the results depend on the processing

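The count of 3435 genes fell to 743 in a test against a log2 difference of 1 (glmTreat) and to 1855 at q under 0.01, and ran from 2097 (without ZT22 C) to 4104 (without ZT6 C) when 1 library was left out. Genes called higher numbered 2054 with DESeq2, 1907 with upper-quartile factors, 759 with the 6 libraries alone, 29 with glmTreat, 448 at q under 0.01, and 604 to 1585 with 1 library left out. Genes called lower numbered 714 with glmTreat, 1407 at q under 0.01, and 1489 to 2519 with 1 library left out. With DESeq2, 3383 of the 3435 genes were called, with the same sign. The 28 calls of the second contrast became 460 with DESeq2, 17 with DESeq2 size factors, 13 with upper-quartile factors, 43 with edgeR's own filter, 110 with no filter, 52 with recovered reads, 47 after thinning, 7 after removal of the length and GC trend, and 0 to 124 with 1 library left out. The cause of these changes was not tested, except that glmTreat and the lower q are stricter by construction. The replicate letters gave no pairing in the data (r between -0.02 and 0.03 for the deviations of same-lettered ZT18 and ZT22 libraries over 14149 genes), and with the letter as a block 3326 genes were called, 3166 of them also without it, and 20 for the second contrast. No named gene reversed direction while called. Of 163 named genes, 31 lost their call with the 6 libraries alone, 42 without ZT22 B, 39 without ZT22 C and 21 after removal of the length and GC trend. With upper-quartile factors the medians of RGS proteins, SCN peptide receptors, SCN transcription factors, clock activators, immediate early genes and mitochondrially encoded subunits changed sign, to between 0.01 and 0.11, as did transcription factors (0.02) and mitochondrially encoded subunits (0.0036) with DESeq2 size factors.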
